A study of Mus musculus with 9 samples.

Results

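The genes described here are 9 proneural basic helix-loop-helix (bHLH) factors, chosen by gene symbol from the 47729 genes of the deposited expression table, which lists all 9 of them. They are Neurog1, Neurog2, Neurog3, Neurod1, Neurod2, Neurod4, Atoh1, Nhlh1 and Olig2. Their expression was followed in mouse ESCs, pluripotent cells of the early embryo, after induction of E2A. The cells came from a single inducible line. It carried a transgene for a forced E2A homodimer, in which a FLAG-tagged E47 protein, a splice product of the E2A gene Tcf3, is tethered to another copy of itself. The transgene stood under a doxycycline (dox)-responsive promoter in a cassette-exchange locus next to Hprt, and all groups carried it. Cells were grown in LIF/serum and were sampled untreated (0 h) and after 18 h and 24 h with dox at 1 µg/ml, with 3 replicates at each time. The treatment protocol text in the labels names 24 h and 48 h, whereas the titles and treatment entries give the 18 h and 24 h used here. Dox-treated cells lacking the transgene were not analysed here, so an effect of dox itself and an effect of the transgene cannot be told apart.

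Proneural bHLH factors bind DNA at E-boxes, the short motif CANNTG, and do so mostly as heterodimers with E proteins such as E2A. Id proteins lack the basic DNA-binding region and hold E proteins away from these partners. In the developing nervous system proneural factors activate Notch ligands and neuronal genes, while Hes proteins, which are induced by Notch signalling, repress proneural genes. Neurog3 is best known as the factor that commits pancreatic progenitors to the endocrine fate, and it is also expressed in parts of the nervous system.

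Among these genes, Neurog3 was upregulated at 18 h and at 24 h, and Neurod4 and Nhlh1 were upregulated at 24 h. The call of Nhlh1 did not hold when any of the 0 h or 24 h libraries was left out. Neurod1 was the most abundant of the 9 genes before dox and stayed near 2 FPKM, so its level was passed by the mean level of Neurog3 at 24 h. Neurog1 and Atoh1 were found at low levels and did not pass the test, although some alternative fits called Neurog1. Neurog2, Neurod2 and Olig2 were below the level at which genes entered the test.

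The data are RNA-seq libraries of polyadenylated RNA. Levels are given in FPKM, which is scaled to the length of the gene and to the depth of the library, so that levels can be compared between genes. Reads were recovered from a further table of values scaled to library size. Neurog2 and Neurod2 are not in that table, and their reads were taken from FPKM and exon length. The 9 libraries held 22028363 to 26471569 reads on genes. The libraries are of bulk cells, in which fewer cells expressing a gene and less RNA per cell cannot be told apart. Of 7 markers of pluripotent ESCs, all were above 1 FPKM in at least 1 library of each time point. Their summed level was 676 to 906 FPKM at 0 h and 515 to 682 FPKM at 24 h. Among them Tdgf1 was downregulated. At 24 h the value of Nanog was 0.86 on the log2 scale (adjusted p = 0.00735 by limma) and that of Pou5f1 was -0.58 (adjusted p = 0.0220 by limma), both smaller in size than the 1 needed for a call. The summed level of 7 fibroblast genes was 6.99 to 14.7 FPKM at 0 h and 6.10 to 10.7 FPKM at 24 h. Of 7 genes of the neural plate, 5 were tested by limma. Of these, Sox1 and Foxd4 were upregulated at 24 h, against 2.07% of all genes tested. Pax3, which was not among the 5, was called at 24 h by edgeR (log2 fold-change 2.81; adjusted p = 0.00088). The summed level of the list was 32.5 to 48.3 FPKM at 0 h and 43.3 to 62.0 FPKM at 24 h. Most of it was Nes, which was not called, at 28.6 to 42.8 FPKM at 0 h and 34.6 to 54.1 FPKM at 24 h. Of 8 genes of the endoderm and endocrine pancreas, 7 stayed below 1 FPKM in all libraries. Their summed level was 1.14 to 1.96 FPKM at 0 h and 2.05 to 2.43 FPKM at 24 h. Of this list limma tested 3 genes and called 0 of them at 24 h. The edgeR fit also covered Pdx1 and Nkx6-1 and called 0 at 24 h. By edgeR the log2 fold-change was 4.55 for Nkx6-1 (adjusted p = 0.0917), 2.02 for Pdx1 (adjusted p = 0.0692) and 1.11 for Foxa2 (adjusted p = 0.0852). It was 0.61 for Sox17 and 0.45 for Chga. Nkx6-1 was at 0 FPKM at 0 h, at 0.0256 to 0.0527 FPKM at 18 h and at 0 to 0.0624 FPKM at 24 h. An unadjusted p below 0.05 by limma was found for 2 (Foxa2 and Chga), against 28.2% of all genes tested. Foxa2 was at 0.0776 to 0.105 FPKM at 0 h and 0.166 to 0.217 FPKM at 24 h. Pdx1 was at 0.0193 to 0.0213 FPKM at 0 h and 0.0547 to 0.119 FPKM at 24 h. For both genes the libraries of these time points did not overlap. Of all genes tested, 16.7% had every 24 h library above every 0 h library. Pdx1 was below the level at which genes entered the test. Chga was at 0.978 to 1.73 FPKM at 0 h and 1.69 to 1.81 FPKM at 24 h, which overlap. Pax4 was listed at 0 in all libraries but replicate 2 at 24 h. The part of these cell types in the results was not tested.

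The windows upstream of the start sites of the genes that were upregulated are printed here because E2A and proneural factors are known to bind E-boxes. RefSeq (GRCm38.p6) gave a start site for all 9 genes. The windows hold the 250 bases before it, and CANNTG, which reads as an E-box on both strands, is in capitals. The window of Neurog3 is chr10:62132840-62133089 on the plus strand, that of Neurod4 is chr10:130280255-130280504 on the minus strand and that of Nhlh1 is chr1:172057597-172057846 on the minus strand.
Neurog3: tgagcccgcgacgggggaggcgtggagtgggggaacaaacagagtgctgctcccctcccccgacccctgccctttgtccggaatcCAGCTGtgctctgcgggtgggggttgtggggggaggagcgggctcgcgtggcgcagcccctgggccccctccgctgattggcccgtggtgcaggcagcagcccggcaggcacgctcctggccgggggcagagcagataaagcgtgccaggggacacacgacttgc
Neurod4: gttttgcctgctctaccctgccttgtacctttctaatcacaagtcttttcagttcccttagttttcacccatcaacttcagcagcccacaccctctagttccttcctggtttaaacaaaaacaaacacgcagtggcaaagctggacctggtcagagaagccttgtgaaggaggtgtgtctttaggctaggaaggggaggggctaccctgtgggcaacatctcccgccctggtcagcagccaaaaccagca
Nhlh1: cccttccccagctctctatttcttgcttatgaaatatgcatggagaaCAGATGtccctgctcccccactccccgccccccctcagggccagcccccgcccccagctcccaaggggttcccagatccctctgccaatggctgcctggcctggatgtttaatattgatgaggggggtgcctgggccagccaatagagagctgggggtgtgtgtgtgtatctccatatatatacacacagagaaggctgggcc
The Neurog3 window held 1 E-box, CAGCTG, which began 165 bases before the start. The Nhlh1 window also held 1, CAGATG, which began 203 bases before the start. No CANNTG was found in the Neurod4 window, nor in that of a further RefSeq start of this gene. Among the genes that were not upregulated, the Neurod1 window held 1 E-box (CATATG) and the Neurod2 window held 3. Windows of Neurog1, Neurog2, Atoh1 and Olig2 held none. E-boxes were thus found for 4 of the 9 genes. Over all 32851 windows of this length in the same table, 66.2% held at least 1 CANNTG, 13.0% held CAGCTG and 14.4% held CAGATG on either strand. A match of letters is a description and not a binding site, and a window without one says only that these letters are not in it.

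Expression was tested with limma on log2(FPKM+0.1) over 17951 genes, those whose FPKM averaged at least 0.1. A gene was called upregulated when its p, adjusted by Benjamini–Hochberg, was at most 0.05 and its log2 fold-change was at least 1, and fold-changes on this scale understate the change of genes with few reads. The p values weigh a difference between time points against the spread of the 3 replicates within time points, pooled over the 9 libraries. Of the 9 genes, 6 passed the filter on FPKM. Atoh1 passed it narrowly, with a mean of 0.1003 FPKM over the 9 libraries, and Olig2, at 0.05003 FPKM, was the nearest below it. Of the 6, 4 (Neurog1, Neurod4, Atoh1 and Nhlh1) had a 0 h mean under the filter and passed it through the libraries with dox, so a count over the genes tested favours genes that are higher with dox.

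**Figure D1:**
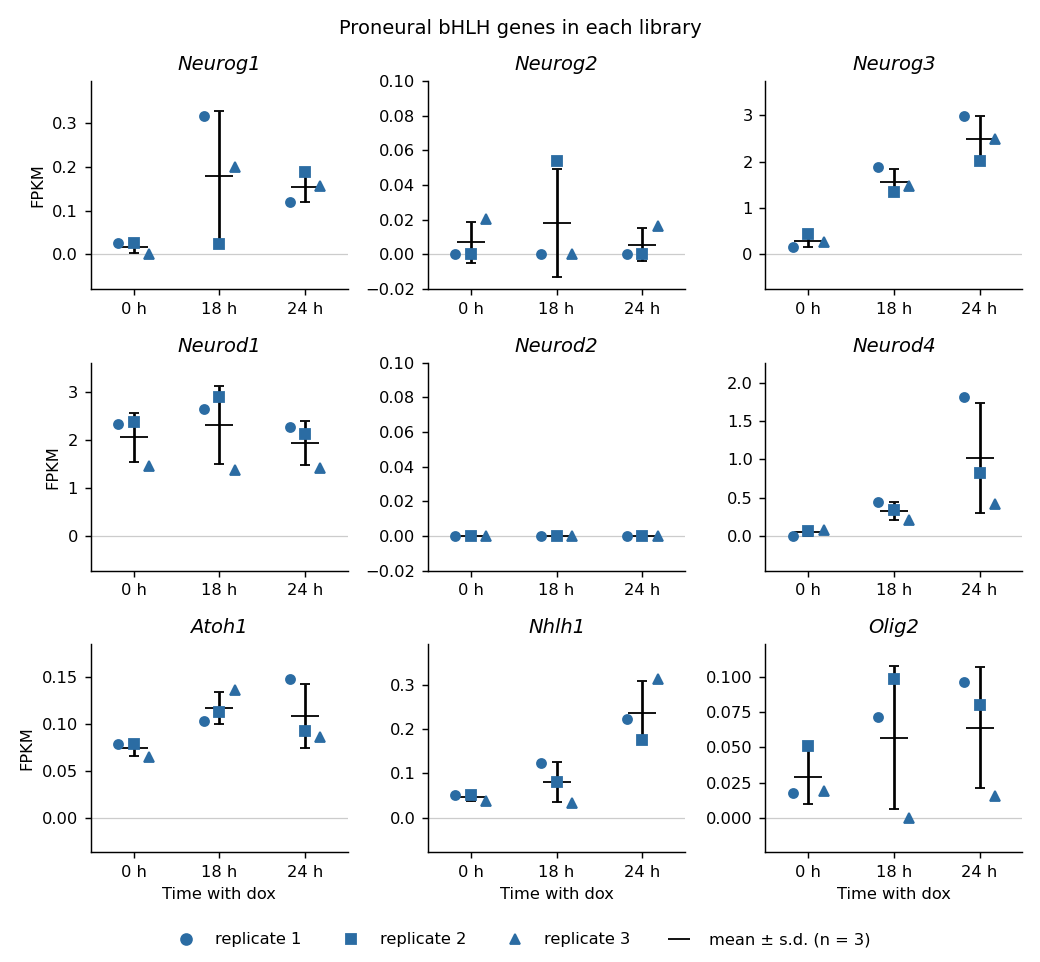
FPKM (vertical axis, a linear scale that differs between panels) of each of the 9 proneural bHLH genes before dox (0 h) and after 18 h and 24 h with it. Each point is 1 library, its shape gives the replicate number, and the bar with whiskers is the mean±s.d. (n=3). Neurog1, Neurog3, Neurod4, Atoh1 and Nhlh1 have all 24 h libraries above all 0 h libraries, Neurod1 has its lowest point in replicate 3 at each time, and Neurod2 is at 0 throughout.

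Neurog3 (ENSMUSG00000044312) was the neurogenin with the highest level at every time. Its locus in GRCm38 is on the plus strand of chromosome 10, from 62133090 to 62134763. In replicates 1, 2 and 3 its level was 0.163, 0.433 and 0.269 FPKM at 0 h. With dox it was 1.87, 1.35 and 1.48 FPKM at 18 h and 2.99, 2.01 and 2.48 FPKM at 24 h. No library of any time point overlapped with one of another, so the order was 0 h, 18 h and 24 h in all replicates. Between 6 and 16 reads lay behind the values at 0 h and between 79 and 117 behind those at 24 h. Replicate 1 had the lowest level at 0 h and the highest at 24 h, a ratio of 18.3 within this replicate number, against 4.64 in replicate 2 and 9.23 in replicate 3. The log2 fold-change to 0 h was 2.15 (95% interval 1.56 to 2.74) at 18 h and 2.78 (2.19 to 3.38) at 24 h, and both were called by limma. From 18 h to 24 h it rose by 0.54 to 0.71 on the log2 scale in each of the 3 numbered pairs. This step was not called, with a log2 fold-change of 0.63 (95% interval 0.04 to 1.22; adjusted p = 0.866 by limma, 0.434 with the replicate number as a block). Neurog3 shares 273 bases of exon with Fam241b on the opposite strand, and the handling of strand in the counting is not given in the sources used here. Fam241b itself had a level of 1.91±0.402 FPKM at 0 h (mean±s.d., n=3), against 1.97±0.148 FPKM at 18 h and 2.04±0.284 FPKM at 24 h.

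The other neurogenins, which specify sensory and cortical neurons, stayed low. Neurog1 (ENSMUSG00000048904; chromosome 13, 56250478 to 56252163, minus strand) had 1, 1 and 0 reads in the libraries at 0 h. With dox it had 12, 1 and 8 reads after 18 h and 5, 8 and 7 reads after 24 h. These correspond to 0.0253, 0.0251 and 0 FPKM at 0 h, 0.316, 0.0242 and 0.199 FPKM at 18 h and 0.119, 0.189 and 0.155 FPKM at 24 h. All 24 h libraries were above all 0 h libraries, whereas replicate 2 at 18 h was within the 0 h range. Summed over replicates and scaled for depth, its reads at 24 h were 8.86 times those at 0 h, with a 95% counting interval (exact, binomial) of 2.15 to 78.2, since only 2 reads stand at 0 h. Neurog1 was not called, although it reached the minimum fold-change with 1.10 at 18 h (adjusted p = 0.153 by limma) and 1.12 at 24 h (adjusted p = 0.130 by limma). The 18 h value depended on single libraries. Without replicate 2 at 18 h it was 1.60 and called (adjusted p = 0.0464 by limma), and without replicate 1 at 18 h it was 0.73 (adjusted p = 0.323 by limma). Neurog2 (ENSMUSG00000027967; chromosome 3, 127633135 to 127635631, plus strand) had at most 3 reads in any library. These were 1 read in replicate 3 at 0 h, 3 reads in replicate 2 at 18 h and 1 read in replicate 3 at 24 h. No fold-change is given for Neurog2, because both ends of each comparison lie at or below 3 reads. Such intervals cover counting error only.

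The NeuroD genes act mostly after the neurogenins, in the differentiation of neurons and of endocrine cells. Neurod1 (ENSMUSG00000034701; chromosome 2, 79452521 to 79456751, minus strand) was at 2.34, 2.38 and 1.47 FPKM in replicates 1, 2 and 3 at 0 h. Its levels were 2.66, 2.90 and 1.38 FPKM at 18 h and 2.28, 2.14 and 1.41 FPKM at 24 h. The time points overlapped, and replicate 3 was the lowest library at each of them, at 0.711, 0.596 and 0.727 of the mean of its time point. This spread was larger than counting error, since chi-square divided by its degrees of freedom was 7.51 to 18.4. Neurod1 did not pass the test at 18 h (log2 fold-change 0.12, 95% interval -0.56 to 0.80) or at 24 h (-0.08, 95% interval -0.76 to 0.60; adjusted p = 0.897 by limma). With the replicate number as a block the interval at 24 h narrowed to -0.33 to 0.17, so a change by the called minimum of 1 in either direction lies outside it. Neurod1 shares 201 bases of exon with Cerkl on the same strand, which had at most 10 reads in a library, and 154 bases with Gm26755 on the opposite strand.

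Neurod4 (ENSMUSG00000048015; chromosome 10, 130268152 to 130280240, minus strand) started from 0, 0.0623 and 0.0825 FPKM in replicates 1, 2 and 3 at 0 h. It was at 0.445, 0.336 and 0.210 FPKM at 18 h and at 1.81, 0.820 and 0.417 FPKM at 24 h. All libraries with dox were above all 0 h libraries, and the lowest 24 h library lay within the 18 h range. Replicate 1 had no read at 0 h and the highest level after dox, and replicate 3 had the highest level at 0 h and the lowest after dox. The replicates at 24 h therefore differed by more than counting error allows, with chi-square divided by its degrees of freedom at 43.0. Scaled for depth, the 262 reads at 24 h were 21.1 times the 11 reads at 0 h (95% counting interval 11.6 to 42.8), and the 79 reads at 18 h were 6.94 times those (3.68 to 14.5). In limma, Neurod4 was called at 24 h, where its log2 fold-change was 2.75 (95% interval 1.70 to 3.81). Leaving out single libraries gave 2.26 to 3.21, all of them called. At 18 h it was not called by limma (1.55, 95% interval 0.49 to 2.60; adjusted p = 0.0754). The call at 18 h was made by edgeR on the recovered reads (2.76; adjusted p = 0.0391). Neurod4 was higher at 24 h than at 18 h in 3 of 3 numbered pairs, by 4.08-, 2.44- and 1.99-fold in FPKM. This step, a log2 fold-change of 1.21, was not called by limma (adjusted p = 0.857, or 0.366 in the fit with the block). Leaving out single libraries gave 0.72 to 1.66, the lowest of these without replicate 1 at 24 h. Among the settings tried it was called only in edgeR with the replicate block (1.53; adjusted p = 0.0204). Neurod2 (ENSMUSG00000038255; chromosome 11, 98325415 to 98329648, minus strand), which acts in maturing neurons, was listed at 0 FPKM in all 9 libraries. The 3 reads that a count of 0 allows would be worth 0.0351 to 0.0439 FPKM, depending on the library.

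**Figure D2:**
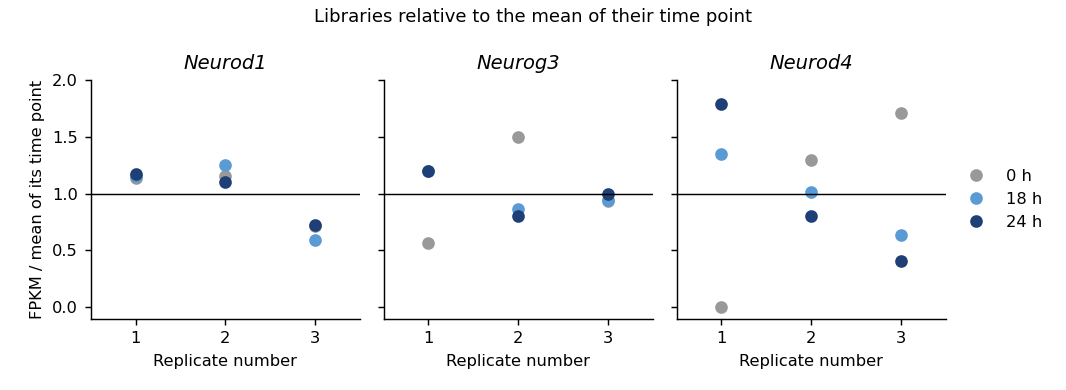
FPKM of each library divided by the mean of its time point (vertical axis, no unit) against the replicate number, for Neurod1, Neurog3 and Neurod4, with shades of blue for 18 h and 24 h and grey for 0 h. Neurod1 is below 1 in replicate 3 at each time, whereas Neurod4 in replicate 1 is at 0 before dox and above 1 at 18 h and 24 h.

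Nhlh1 (ENSMUSG00000051251; chromosome 1, 172052292 to 172057573, minus strand) is transiently expressed in newly born neurons. In replicates 1, 2 and 3 it was at 0.0510, 0.0507 and 0.0373 FPKM at 0 h, 0.124, 0.0814 and 0.0336 FPKM at 18 h and 0.224, 0.175 and 0.313 FPKM at 24 h. All 24 h libraries lay above all others, while the 18 h libraries overlapped with those at 0 h. There were 3, 3 and 2 reads at 0 h against 14, 11 and 21 reads at 24 h, a depth-scaled ratio of 5.10 (95% counting interval 2.38 to 12.5). The log2 fold-change at 24 h was 1.18 (95% interval 0.50 to 1.87), with an adjusted p of 0.0378 by limma. This call was lost in each of the 6 fits that left out a 0 h or 24 h library, in which the log2 fold-change was 1.03 to 1.32 and the adjusted p was 0.0631 to 0.126 by limma. The 18 h libraries gave 0.27 compared with 0 h (adjusted p = 0.626 by limma). From 18 h to 24 h it was 0.92 (95% interval 0.24 to 1.60; adjusted p = 0.857 by limma).

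Atoh1 (ENSMUSG00000073043; chromosome 6, 64729125 to 64731245, plus strand) drives the formation of hair cells and cerebellar granule cells. Its levels were 0.0791, 0.0786 and 0.0651 FPKM at 0 h, 0.103, 0.114 and 0.136 FPKM at 18 h and 0.148, 0.0924 and 0.0866 FPKM at 24 h. All libraries with dox were above all 0 h libraries, but these values rest on 3 or 4 reads per library at 0 h and on 5 to 8 with dox. The depth-scaled ratio of the reads at 24 h to those at 0 h was 1.45, with a 95% counting interval of 0.649 to 3.40, so no difference was detectable at this depth. The limma fit gave log2 fold-changes of 0.32 at 18 h (adjusted p = 0.493) and 0.25 at 24 h (adjusted p = 0.569). Olig2 (ENSMUSG00000039830; chromosome 16, 91225457 to 91228677, plus strand) specifies motor neurons and oligodendrocytes. It had 1, 3 and 1 reads at 0 h, then 4, 6 and 0 reads at 18 h and 6, 5 and 1 reads at 24 h, and the time points overlapped. The depth-scaled ratio at 24 h was 2.13, with a 95% counting interval of 0.698 to 7.71.

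**Figure D3:**
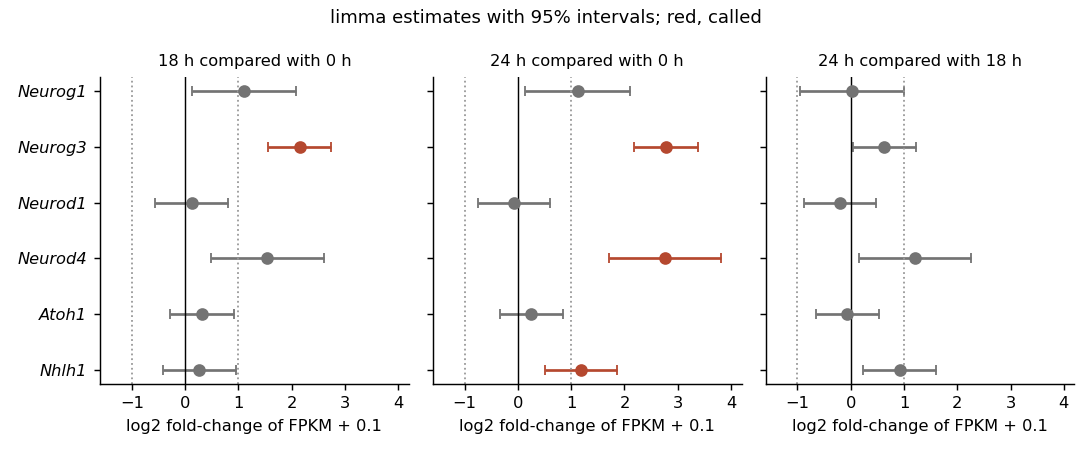
log2 fold-change of FPKM+0.1 (horizontal axis) with its 95% interval by limma for the 6 genes tested, in 3 comparisons. Red marks the genes called, and dotted lines mark a log2 fold-change of 1 in either direction. Neurog3 is red at 18 h and at 24 h compared with 0 h, Neurod4 and Nhlh1 are red at 24 h compared with 0 h, and no gene is red at 24 h compared with 18 h.

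Over all genes tested by limma, 1.33% were called upregulated and 0.724% downregulated at 18 h, and 2.07% and 0.836% at 24 h, compared with 0 h. Of the 9 proneural genes, 1 was called upregulated at 18 h and 3 at 24 h. Of the 6 tested, 0 were called downregulated at either time, nor did any have an unadjusted p below 0.05 with a lower level. A call as downregulated was open only to Neurog3 and Neurod1. The 0 h means of Neurog1, Neurod4, Atoh1 and Nhlh1 were under the 0.1 FPKM added before the log. From there no fall reaches the minimum of 1, so the absence of downregulated genes says little. Both comparisons share the 0 h libraries. Every library with dox was above every 0 h library for 3 of the 6 genes tested at 18 h (Neurog3, Neurod4 and Atoh1), against 14.4% of all genes tested. At 24 h this held for 5 (these and Neurog1 and Nhlh1), against 16.7%. Of these 5, all but Neurog3 passed the filter through the libraries with dox. The counts therefore favour genes that are higher with dox, and they do not show an excess over these shares. At 24 h compared with 18 h, limma called 0 of the 6 genes, with 0.0167% of all genes upregulated and 0.00557% downregulated. An unadjusted p below 0.05 was found for 3 of them (Neurog3, Neurod4 and Nhlh1) in this comparison, against 5.59% of all genes tested, and with the replicate block for 2 (Neurod4 and Nhlh1), against 12.3%. Every 24 h library was above every 18 h library for 2 of them (Neurog3 and Nhlh1), against 6.81% of all genes.

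The count models, fitted to the recovered reads of the 19210 genes in the filtered table, cover 7 of the 9 genes. At 18 h edgeR called Neurog3 and Neurod4 upregulated, beside 1.99% of its genes. At 24 h it called Neurog3, Neurod4 and Nhlh1, beside 2.81% of its genes. With the replicate block edgeR also called Neurog1, whose log2 fold-change was then 3.10 at 18 h (adjusted p = 0.0226) and 2.97 at 24 h (adjusted p = 0.0264), beside 2.63% and 3.53% of its genes. For the step from 18 h to 24 h, edgeR called 0% of its genes upregulated without the block and 0.0364% with it, Neurod4 among them. DESeq2 gave an adjusted p for 3 of these genes in this step (Neurog3, Neurod1 and Neurod4) and called 0 of them.

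At 0 h Neurod1 was 7.15 times as high as Neurog3 in mean FPKM, and Neurog3 was 3.88 times as high as Atoh1. The libraries did not overlap at either step, whereas the neighbours below Atoh1 in this order overlapped. At 18 h Neurod1 and Neurog3 overlapped, and Neurog3 was 4.75 times as high as Neurod4 without overlap. At 24 h the order was Neurog3, Neurod1 and Neurod4, in which neighbours overlapped, followed by Nhlh1, which was 4.29-fold below Neurod4 without overlap. The summed level of the 9 genes in replicates 1, 2 and 3 was 2.67, 3.08 and 1.96 FPKM at 0 h, 5.59, 4.96 and 3.43 FPKM at 18 h and 7.67, 5.51 and 4.90 FPKM at 24 h. Neurod1 made up 74.8% to 87.4% of this sum at 0 h and 28.9% to 38.9% at 24 h. The share of Neurog3 was 6.12% to 14.0% at 0 h and 36.5% to 50.7% at 24 h. That of Neurod4 was at most 4.21% at 0 h and was 8.52% to 23.6% at 24 h.

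**Figure D4:**
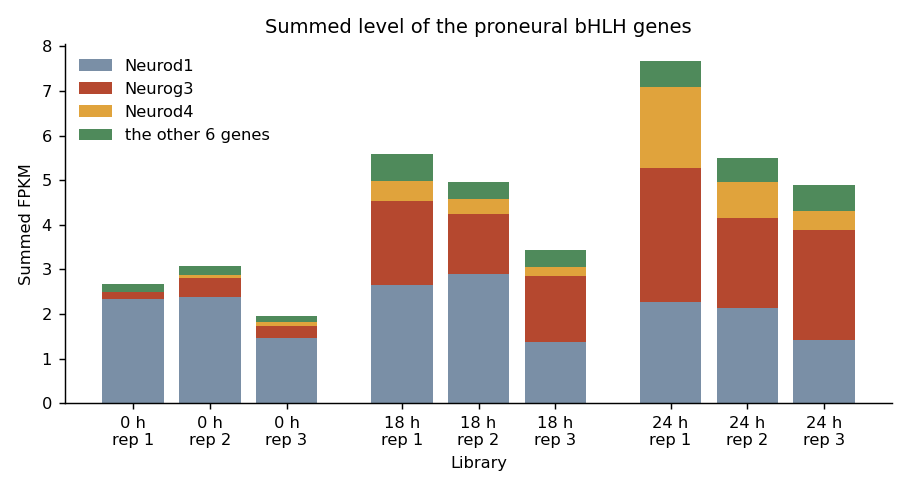
Summed FPKM of the 9 proneural bHLH genes (vertical axis, from 0) in each of the 9 libraries, stacked by gene. Neurod1 makes up most of the bar at 0 h, and the added height at 18 h and 24 h is largely Neurog3 and, at 24 h, also Neurod4, most of all in replicate 1.

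Other genes of the pathway were taken from 4 lists of genes with known roles beside the proneural factors. The lists were chosen with earlier results of these data known, so counts over them carry no test. Of 7 genes for E proteins and their Id inhibitors, 5 were upregulated at 24 h and at 18 h. The shares over all genes tested were 2.07% and 1.33%. Id3 was at 11.6 to 18.8 FPKM at 0 h and at 241 to 284 FPKM at 24 h, a log2 fold-change of 4.21. Id1, Id4 and Id2 followed at 24 h with 2.62, 2.32 and 1.95, and Tcf3, on which reads of the transgene can be counted, had 1.38. The E protein genes Tcf12 (0.59) and Tcf4 (0.42) stayed below the minimum of 1. In every library with dox, Id1, Id2 and Id3 were each at 132 FPKM or more. In the same libraries Tcf3, with any reads of the transgene, was at 93.6 to 116 FPKM, and Neurog3 did not exceed 2.99 FPKM. These are levels of RNA, and inhibition by Id proteins was not tested.

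Of 21 known targets of proneural factors and genes of new neurons, 18 were tested. Of these, 7 were upregulated at 18 h and 9 at 24 h, against 1.33% and 2.07% of all genes tested. The Notch ligand genes Dll1, Dll3 and Dll4 had log2 fold-changes of 1.73, 1.96 and 1.23 at 24 h. Dll1 rose from 0.861 to 1.27 FPKM at 0 h to 3.27 to 4.57 FPKM at 24 h, and Dll3 from 2.10 to 3.24 FPKM to 8.39 to 11.6 FPKM. Hes6, which antagonises Hes1, had 1.39, and the stress-response and neurogenic gene Gadd45g had 1.66. The others called were the corepressor gene Cbfa2t3 (2.29), the cell-cycle inhibitor gene Btg2 (1.04), Ebf2 (1.86) and the neural splicing gene Srrm4 (1.63), of which Ebf2 was at most at 0.0241 FPKM at 0 h. Dll4 and Srrm4 were not called by limma at 18 h, although Srrm4 was with the replicate block (adjusted p = 0.0118 by limma). At 18 h edgeR called Dll4 (1.62; adjusted p = 0.0230) and Srrm4 (1.80; adjusted p = 0.0102). It did not call Btg2 at 18 h (0.98), which limma did. Several of the genes called, such as Ebf2 and Cbfa2t3, were under the filter at 0 h and passed it through the libraries with dox. The other 9 targets tested were not called at 24 h and had values from -0.27 (Stmn2) to 0.88 (Insm1). Among these the tubulin gene Tubb3 had 0.59 and an adjusted p of 0.0638 by limma. With the replicate block the adjusted p by limma was 0.000739 for Tubb3, 0.00294 for Insm1 and 0.00527 for Stmn2, all of which stayed below the minimum fold-change.

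**Figure D5:**
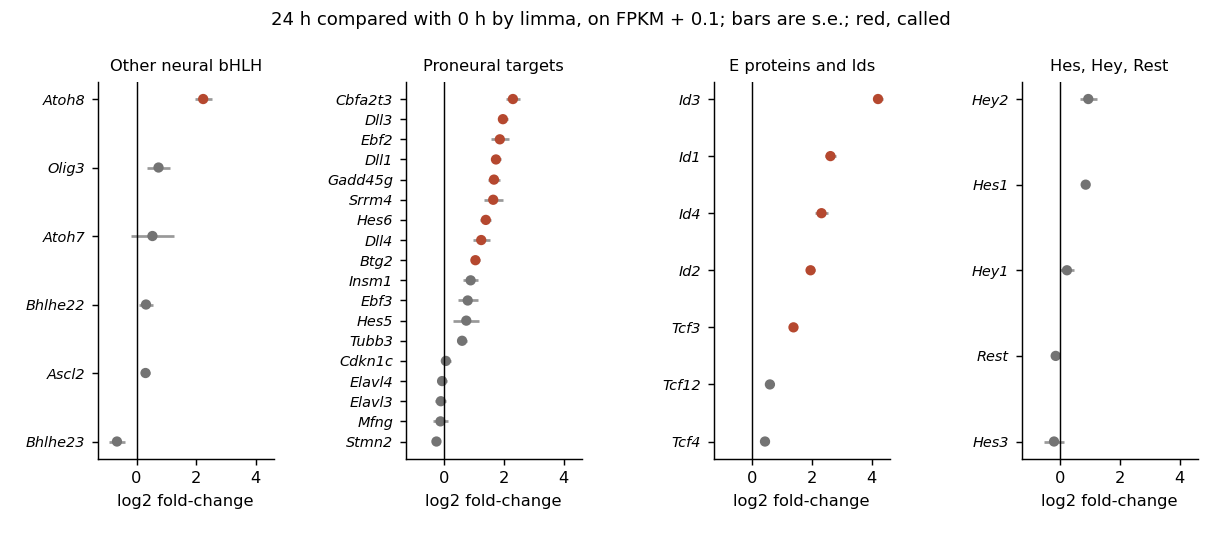
log2 fold-change on FPKM+0.1 at 24 h compared with 0 h by limma (horizontal axis, bars are the s.e.) for the tested genes of 4 lists related to proneural factors, with the genes called in red. Of the targets, 9 are red, among them Dll1, Dll3 and Dll4, and of the E protein and Id genes 5 are red, with Id3 the farthest to the right at 4.21.

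Of 12 other bHLH genes of the nervous system, 6 were tested by limma. Of these, 1 (Atoh8) was upregulated at 18 h and at 24 h, against 1.33% and 2.07% of all genes tested. Atoh8 had log2 fold-changes of 2.05 at 18 h and 2.23 at 24 h and reached 0.438 to 0.722 FPKM at 24 h. At 0 h Atoh8 was at most at 0.0836 FPKM, under the filter, which it passed through the libraries with dox. Nhlh2, which did not pass the filter, was called at 24 h by edgeR (log2 fold-change 3.88; adjusted p = 0.0114). It was at 0 to 0.0170 FPKM at 0 h and at 0.0610 to 0.269 FPKM at 24 h. Of 6 repressor genes (Hes1, Hes3, Hey1, Hey2, Heyl and Rest), 5 were tested. Hey2 was upregulated at 18 h, with 1.33 (adjusted p = 0.0239 by limma), and limma called 0 of the 5 at 24 h. At that time 2 of them (Hes1 and Hey2) had an unadjusted p below 0.05 by limma, against 28.2% of all genes tested. The edgeR fit, which also covered Heyl, called Hey2 (1.15) and Heyl (1.93) at 24 h. Hes1, the Notch effector that represses proneural genes, was at 5.17 to 5.44 FPKM at 0 h and at 8.85 to 10.4 FPKM at 24 h, with an adjusted p of 0.00104 by limma and a log2 fold-change of 0.85, below the minimum of 1. Rest, the repressor of neuronal genes outside the nervous system, had -0.16.

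The genes whose pattern was most like that of each proneural gene were ranked by Pearson's r of log2(FPKM+0.1) over the 9 libraries, among genes with a mean of at least 1 FPKM. The libraries share their 3 time points, so these values describe likeness and carry no test. For Neurog3 they were Parp9 (0.991), Irf1 (0.988) and Nrk (0.987), which are themselves higher with dox in all libraries. For Neurod4 they were Ero1l (0.981), Rab3a (0.974) and Gm11914 (0.973), and for Nhlh1 they were Xbp1 (0.955), Gstt3 (0.950) and Manf (0.944). For Neurod1 they were Arid1a (0.944), Ddx4 (0.931) and Slc38a2 (0.927). Ddx4, a germ cell gene, was lowest in replicate 3 at each time, at 2.97 FPKM at 0 h, 2.90 FPKM at 18 h and 2.45 FPKM at 24 h, against 4.24 to 5.71 FPKM in the other libraries. For Neurog1 and Atoh1, which rest on few reads, the nearest genes were Gm7332 (0.936) and Zfp420 (0.916).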

How the data were processed

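Strand-specific polyadenylated RNA libraries were aligned by the authors to GRCm38 with STAR. The Ensembl release and the handling of strand and of reads with several alignments are not given in the sources used here. The authors deposited FPKM values for 47729 genes and, for 19210 genes, a signal made from CPM by scaling to effective library sizes. The deposited columns of log2 fold-changes and p-values of the authors' comparisons were not used. Dividing the deposited signal by what 1 read was worth recovered whole reads for 100% of values (within 0.01 of a read). The design allowed for counts, but the files hold FPKM, so limma 3.58.1 (R 4.3.3) on log2(FPKM+0.1) was the test, fitted to all 9 libraries without a block. Alternatives were edgeR 4.0.16 and DESeq2 1.42.0 on recovered reads, other pseudocounts, filters and scaling, the replicate block and each library left out.

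Reads of genes outside the filtered table (Neurog2 and Neurod2) were taken from FPKM and exon length. Loci and overlaps are from GENCODE M21. Libraries with the same replicate number in the labels deviated together from their time point means (r of 0.211 to 0.548 over 9 pairs), so the numbers pair the libraries. All pairs of replicates differed by more than sampling noise (chi-square divided by degrees of freedom 5.39 to 16.3). Counting intervals are exact 95% binomial intervals of summed reads. All 9 genes are described, the genes of the lists may be named and those called are, as are genes that overlap a proneural gene and the 3 genes most like each. The members and the lists were chosen with earlier results of these data known.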

Additional observations from a re-analysis of the deposited data

How the results depend on the processing

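The number of the 9 genes called upregulated at 18 h was 1. It was 0 with a pseudocount of 1, with which Neurog3 fell just under the minimum fold-change, 2 with edgeR and with DESeq2, 3 with edgeR and the replicate block, and 1 to 2 when single libraries were left out. The number at 24 h was 3. It was 1 with a pseudocount of 1 and with a mean FPKM of at least 1, a filter that leaves Neurog3 and Neurod1, and 2 in each fit with a library left out. For 24 h compared with 18 h it was 0, and 1 with edgeR and the replicate block. In limma the replicate block changed no call of these genes, with 1, 3 and 0 called in the 3 comparisons. The call of Nhlh1 was also lost with a pseudocount of 0.01 (adjusted p = 0.0520 by limma), after quantile normalization (adjusted p = 0.0572 by limma) and when the other time point was left out of the fit (adjusted p = 0.0523 by limma). Neurod4 at 24 h fell under the minimum fold-change with a pseudocount of 1 (0.89). At 24 h the other bHLH genes called numbered 0 with a pseudocount of 1 and 2 with edgeR, the targets 5 with a pseudocount of 1, and the repressor genes 2 with edgeR. The cause of these shifts was not tested.

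Signs turned only where the value was near 0. For Neurog1 at 24 h compared with 18 h, 0.02 became -0.025 with a pseudocount of 1, -0.014 after quantile normalization, -0.20 with edgeR, -0.13 with edgeR and the block and -0.22 with DESeq2. With each library left out it ranged from -0.48 to 0.39. Neurod1 then ranged from -0.094 to 0.44 at 18 h, from -0.29 to 0.13 at 24 h and from -0.52 to 0.0027 between these times, and Atoh1 from -0.20 to 0.0092 between these times. No scaling moved the median of all genes by over 0.1. Neurog1, Atoh1 and Olig2 had at most 12 reads in a library. For Atoh1 and Olig2 the counting intervals of the ratio at 24 h include 1, and for Neurog1 the interval does not, while its 18 h libraries differed by more than counting error.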
